A study of Mus musculus with 2 samples.

Results

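Mir132 and Mir212 are 2 neighbouring miRNA hairpins on mouse chromosome 11, and they are described here in the left cerebral cortex. They were taken by name, as the pair of hairpins whose transcription is known to be driven by the factor CREB, and both were found among the 2202 miRNA genes of the annotation. The rule uses no measured value, but the pair was proposed with earlier results of these data known. MicroRNA sequencing of fragments under 30 nt was carried out on total RNA from adult females of strain 5xFAD/CAST, aged 8 to 10 months. 5xFAD mice carry transgenes under the neuronal Thy1 promoter and form amyloid plaques in the brain. The 2 libraries form 1 group, so there is no mouse without the transgenes, no other age and no stimulus to set against them. The labels give both libraries 1 donor entry and a tissue entry each, without stating whether more than 1 animal was used. P-values therefore measure only how far these 2 libraries differ, which may be technical.

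A miRNA hairpin is cut from a longer transcript by Drosha and is then processed by Dicer. Afterwards 1 of its arms is loaded into Argonaute, where the seed (bases 2 to 8) pairs with target mRNAs. In neurons, synaptic activity and neurotrophins such as BDNF lead to phosphorylation of CREB, which induces the shared primary transcript of Mir212 and Mir132. miR-132 promotes dendrite growth and spine formation. Low miR-132 has often been described in brains with Alzheimer's disease. Nothing in this design measures activity, so the levels below are those of the tissue as taken.

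The mature sequences are shown because the shared seed is what makes the pair 1 target family. They were taken from RefSeq (build GRCm38.p6), which held entries for both genes. They run 5′ to 3′ on the plus strand of chromosome 11, with the seed in capitals.
mmu-miR-132-3p: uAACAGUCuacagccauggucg
mmu-miR-212-3p: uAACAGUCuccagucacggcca
mmu-miR-132-5p: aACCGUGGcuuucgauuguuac
mmu-miR-212-5p: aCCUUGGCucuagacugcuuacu
The 3p arms have the same seed, AACAGUC. Among 1679 mature mouse miRNAs of that table, no other has this seed. Over their 22 bases the 3p arms match at 17 (77.3%). Counted from 1 at the 5′ end, with the base of miR-132-3p first, they differ by A10C, C14U, U17C, U20C and G22A, all beyond the seed. The 5p arms align best when miR-212-5p is shifted by 1 base, with 14 of 21 aligned bases matching (66.7%). As annotated, their seeds differ from each other, and 0 other mature miRNAs in the table share either one.

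The hairpins are shown in full, with the mature arms in capitals, because the counts below are of whole hairpins.
Mir132: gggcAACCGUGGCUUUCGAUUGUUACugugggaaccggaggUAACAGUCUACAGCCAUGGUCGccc
Mir212: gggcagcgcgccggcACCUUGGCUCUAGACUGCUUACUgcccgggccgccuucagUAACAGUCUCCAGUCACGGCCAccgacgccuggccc
The hairpin of Mir132 (66 bases) is 57.6% G and C, and that of Mir212 (91 bases) is 69.2%, against a median of 51.7% over 1005 RefSeq hairpins. Of those hairpins, 96.9% are less rich in G and C than Mir212, and 74.4% are less rich than Mir132. Predicted folding energy per base, from RNAfold, was -0.56 kcal/mol for Mir132 and -0.46 kcal/mol for Mir212, against a median of -0.41. On that scale 93.2% of hairpins are less stable than Mir132 and 71.5% are less stable than Mir212. The longest run of bases the hairpins share with each other is 10, GUAACAGUCU, which holds the seed. Against all other annotated hairpins on either strand, the longest shared run is 11 bases for Mir132 and 12 for Mir212. Among annotated hairpins neither has a near copy of the kind that would send its reads to the class mapping to several places.

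Both hairpins lie in intron 1 of the long noncoding RNA 1700016P03Rik (ENSMUSG00000085609.1) on the same strand, in GENCODE M21 on mm10. Mir212 (ENSMUSG00000065590.1) is at chr11:75173388-75173478 and Mir132 (ENSMUSG00000065537.2) is at chr11:75173682-75173747, with 203 bases between them. Mir212 starts 828 bases from the start of the host and Mir132 starts 1122 bases from it, within an intron of 1380 bases. No other annotated miRNA gene lies within 100 kb of the pair.

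**Figure D1:**
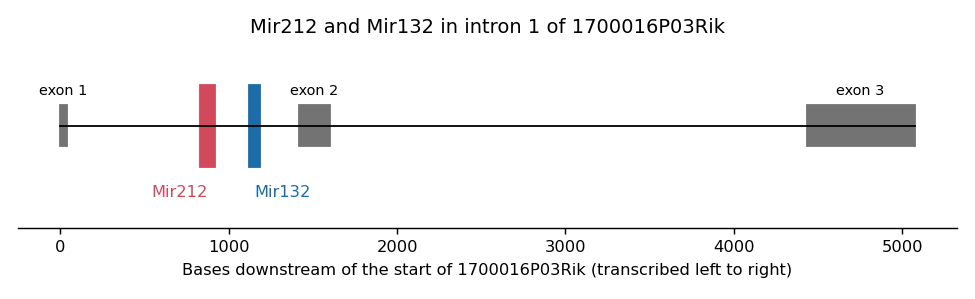
Map of the host transcript 1700016P03Rik, drawn to scale, with the x axis in bases from its start. Grey boxes are its 3 exons, and the coloured boxes are the hairpins Mir212 and Mir132, which both lie in intron 1 with 203 bases between them.

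By reads assigned to 1 gene, Mir132 was among the 10 most abundant miRNA genes of the cortex in both libraries. The level of Mir212 was 53.8-fold lower by mean CPM, the counts scaled to a common library total. Replicate 1 held 171492 Mir132 counts and replicate 2 held 109386, of 4226300 and 5162369 counts on miRNA genes. The level was 40577 CPM in replicate 1, with a Wilson 95% interval of 40390 to 40766. In replicate 2 it was 21189 CPM (21065 to 21314). Mir132 thus ranked 6 in replicate 1 and 9 in replicate 2, and took 4.06% and 2.12% of the counts. Replicate 1 was the higher of the libraries, and the counting intervals did not overlap. Reads mapping to several places are not in these counts. They numbered 5244644 in replicate 1 and 6290303 in replicate 2, more than the counts on miRNA genes. Ranks and shares therefore hold among the counted reads only, and the ranks of genes with copies elsewhere are uncertain.

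Mir212 had 2845 counts in replicate 1 and 2449 in replicate 2. These are 673 CPM (Wilson 95% interval 649 to 698) and 474 CPM (456 to 494), at ranks 108 and 130. Again replicate 1 was higher and the intervals did not overlap. Its mean of 574 CPM ± 141 (SD, n = 2) was above that of 62.5% of the 309 genes detected, meaning those with 10 CPM or more in both libraries. For Mir132 that share was 97.4%. The intervals cover counting error alone, since reads without molecular identifiers are not independent molecules.

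Counts on the strand opposite the gene were 0 for Mir132 in both libraries, which allows 0.71 CPM in replicate 1 and 0.581 CPM in replicate 2. Mir212 had 3 such counts in replicate 1 and 0 in replicate 2. Nearly all reads at this locus thus had the orientation of the host transcript. A table row sums both arms of a hairpin, so the counts do not say which share of them is the 3p arm with the common seed.

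**Figure D2:**
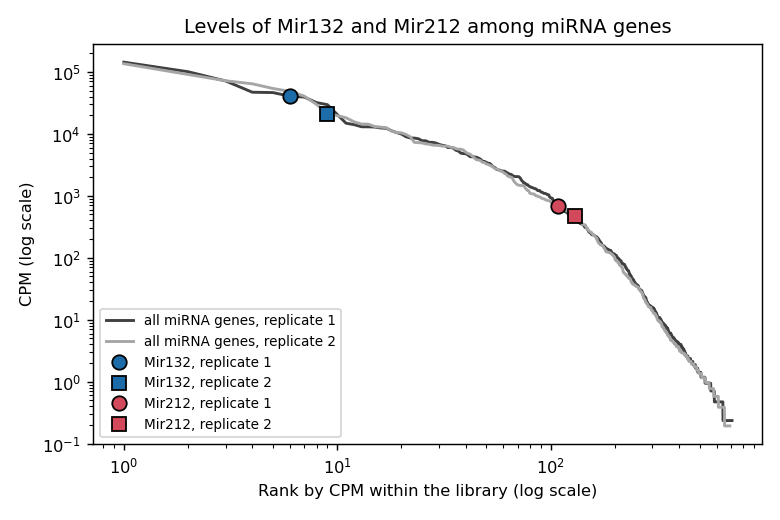
CPM of each miRNA gene against its rank in the library, both on log scales, with 1 line per library over the genes with at least 1 count. Mir132 (blue) sits at ranks 6 and 9, and Mir212 (red) sits at ranks 108 and 130; circles are replicate 1 and squares are replicate 2.

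In the order of mean levels, Mir132 stood at place 8 with 30883 CPM ± 13710 (SD, n = 2). The genes just above it were Mirlet7d (39274 and 53995 CPM in replicates 1 and 2), of the let-7 family that marks differentiated cells, and Mir127 (31984 and 40736 CPM), of the imprinted Dlk1-Dio3 cluster. Just below were Mirlet7e (29549 and 29866 CPM) and Mir23b (20609 and 18187 CPM). The 2 values of Mir132 overlapped the range of each of these genes except Mir23b. Mir23b was lower than Mir132 in both libraries, but it shares 20 bases with Mir23a, so its counts are uncertain. Mirlet7e shares 17 bases with Mir7k.

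Mir212, at place 116, overlapped with the nearest genes on either side. These were Mir1843a (595 and 578 CPM in replicates 1 and 2) and Mir28a (462 and 697 CPM) above it, and Mir204 (475 and 667 CPM) and Mir7689 (481 and 648 CPM) below it. Its place in the order is therefore not resolved by these libraries. Mir1843a and Mir28a share 20 bases or more with another hairpin and their counts are uncertain.

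The ratio of the 2 hairpins within a library needs no scaling between libraries. Mir132 had 60.3 counts per Mir212 count in replicate 1 (exact 95% interval 58.1 to 62.6) and 44.7 in replicate 2 (42.9 to 46.5). The ratio was higher in replicate 1 by 1.35-fold (1.28 to 1.43; two-sided Fisher's exact test on the counts, p = 9.21e-27). That test compares these libraries and allows for counting error alone. The mean ratio was 52.5 ± 11.04 (SD, n = 2). Mir132 made up 98.4% of the hairpin counts of the pair in replicate 1 and 97.8% in replicate 2, with both arms of each hairpin summed.

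The gap between Mir132 and Mir212 was among the wider ones between neighbouring hairpins. Adjacent miRNA genes on 1 strand within 10 kb, each with 100 or more counts over both libraries, made 81 pairs. Their median level gap was 8.00-fold. Mir212 and Mir132, at 53.8-fold from their mean CPM, had a gap wider than 74 of these pairs and narrower than 6. The next wider pair was Mirlet7c-2 and Mirlet7b (1274 and 71717 mean CPM), and the next narrower was Mir30d and Mir30b (7025 and 137 mean CPM). Pairs in 1 cluster share hairpins, so the 81 are not independent, and some hold hairpins with copies elsewhere.

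Between the libraries, both hairpins were higher in replicate 1, and Mir132 differed more than Mir212. With TMM-scaled library sizes, Mir132 was 1.96-fold higher in replicate 1 (exact 95% interval 1.94 to 1.97). Its log2 ratio of replicate 2 over replicate 1 was -0.97, and the −log10 of the adjusted p was 6744. Mir212 was 1.45-fold higher in replicate 1 (1.37 to 1.53), with a log2 ratio of -0.54 and an adjusted p of 1.06e-40. Both p-values are from a two-sided exact binomial test with Benjamini-Hochberg adjustment over 546 genes.

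Such calls were common. The same test called 58.8% of all tested genes, and 34.2% of all tested genes were called higher in replicate 1. Of the 199 genes with 1000 counts or more over both libraries, 87.4% were called, and 47.2% were called higher in replicate 1. The biological coefficient of variation (BCV), the spread beyond counting error, was 0.481 over the tested genes. In edgeR's exact test at a fixed BCV of 0.1, which called 28.8% (18.5% higher in replicate 1), both genes were still called, with adjusted p = 3.15e-05 for Mir132 and 0.0384 for Mir212. At a fixed BCV of 0.4, which called 1.28% (0.916% higher in replicate 1), the adjusted p was 1 for each hairpin in edgeR's exact test. With 1 group of 2 libraries, the spread cannot be estimated apart from the difference itself.

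The size of the difference can be set against other genes of like depth. Among the 90 genes with 10000 counts or more in the sum, the median difference was 1.27-fold in either direction, and 12 genes, Mir132 included, differed by as much as Mir132 or more. Toward replicate 1 there were 10 such genes. Of the 8 tested genes within 2-fold of the mean level of Mir132, itself included, none of the others differed by as much. Mir212 was less apart from its peers. Among 109 genes with 1000 to 10000 counts the median difference was 1.32-fold, and 36 genes, Mir212 included, differed by as much as it did.

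**Figure D3:**
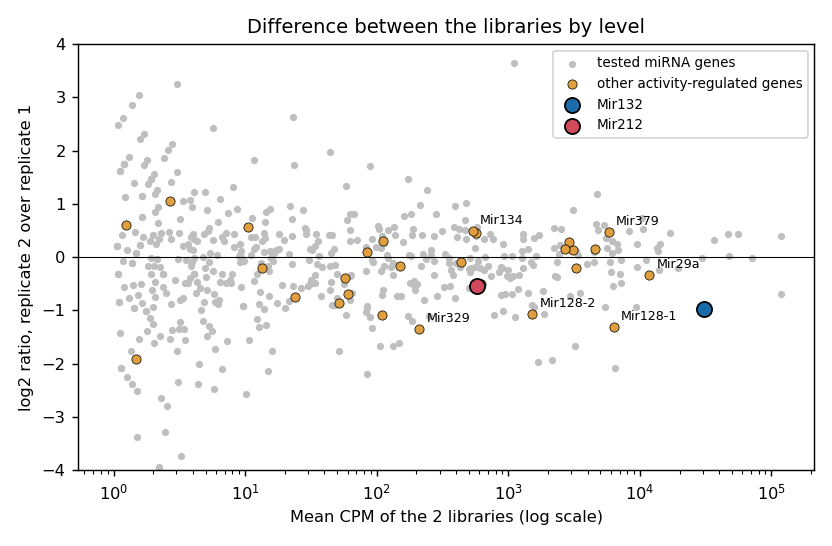
Log2 ratio of replicate 2 over replicate 1 (TMM-scaled, 0.5 counts added) against mean CPM on a log scale, with 1 point per tested miRNA gene; 15 of 546 genes lie beyond the limits of the y axis. Mir132 (blue, -0.97) and Mir212 (red, -0.54) lie below 0, as do Mir128-1, Mir128-2 and Mir329 among the other activity-regulated genes (orange), while Mir379 and Mir134 lie above it.

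Within Mir212 and Mir132, the log2 ratios were 0.43 apart. For the 81 neighbouring pairs the median distance was 0.51, and 39.5% of pairs were closer together than Mir212 and Mir132. In 46 of the 81 pairs both hairpins lay on the same side of 0, and in 27 of them both were higher in replicate 1. In 12 pairs, this one included, both log2 ratios were -0.5 or lower. The pairs next to it in this order were Mir410 and Mir3072, Mir181a-1 and Mir181b-1, and Mir543 and Mir495 on the closer side. On the wider side were Mir27a and Mir24-2, Mir374b and Mir421, and Mir30e and Mir30c-1. The distance between Mir212 and Mir132 was thus a little under the median.

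**Figure D4:**
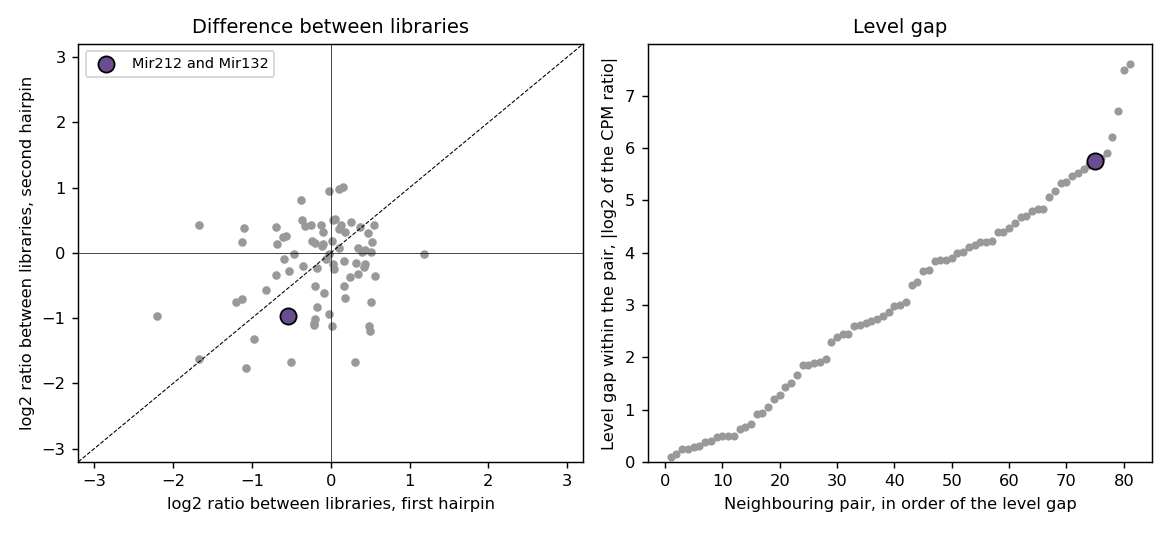
Left, log2 ratio of replicate 2 over replicate 1 for the hairpin transcribed first (x) and the next one (y) in 81 neighbouring pairs, with the line of equality dashed and 4 pairs beyond the limits. Right, the level gap within each pair as |log2 of the CPM ratio|, in rising order; Mir212 and Mir132 (purple) lie at -0.54 and -0.97 on the left and at 5.75 on the right.

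The genes with the ratio between libraries closest to that of each hairpin were sought among genes with 1000 or more counts over both libraries. Likeness over 2 libraries is a single difference, so it is a weak measure. Next to Mir132 were Mir874 (log2 ratio -0.95), Mir125a (-0.94), Mir674 (-0.94), Mir195a (-1.01) and Mir423 (-0.91). Next to Mir212 were Mir15b (-0.53), Mir92-1 (-0.55), Mir92b (-0.55), Mir145a (-0.51) and Mir381 (-0.51). Mir92-1 shares 22 bases with Mir92-2, so its counts are uncertain. Of the genes named here, Mir381 is also on the activity-regulated list described next.

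Other miRNA genes known to respond to neuronal activity or light lay on both sides of 0. The list held 31 genes with Mir132 and Mir212, of which 25 were detected and 29 tested. Of them the binomial test called 23, with 15 on the side of replicate 1 and 8 on that of replicate 2. Over all tested genes, 34.2% and 24.5% were called in these directions. Calls were more common at depth: of genes with 1000 counts or more, 87.4% were called, and 47.2% were called toward replicate 1. The median log2 ratio was -0.20 over the tested members and -0.17 without the pair, against -0.07 over all tested genes. In all, the list took 8.90% of the counts in replicate 1 and 6.39% in replicate 2. Mir132 by itself made up 45.6% and 33.2% of the list in replicates 1 and 2. Of the 31 hairpins, 15 share 18 bases or more with another hairpin, so their counts are uncertain; Mir132 and Mir212 do not.

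Among the list's most abundant members, Mir128-1 resembled Mir132 in direction. Mir128-1, whose product limits neuronal excitability, had 38037 counts in replicate 1 and 19035 in replicate 2, and was 2.49-fold higher in replicate 1. Mir128-2, encoded on another chromosome, had 8671 and 5140 counts and was 2.11-fold higher in replicate 1. These genes share 23 bases, so the split of reads between them is uncertain. Mir29a, a miRNA that increases as the brain matures, had 55058 and 54264 counts and was 1.27-fold higher in replicate 1 once library sizes were scaled.

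Of the members in the Mir379 to Mir410 cluster, which the activity-dependent factor Mef2 induces, some lay on each side. Mir379 had 20270 counts in replicate 1 and 35143 in replicate 2, and was 1.39-fold higher in replicate 2. Mir134, which limits dendritic spine size by repressing Limk1, had 1867 and 3252 counts, a 1.40-fold difference toward replicate 2. Mir485, with 10666 and 14869 counts, was 1.12-fold higher in replicate 2. Mir329, with 1274 and 624 counts, was 2.55-fold higher in replicate 1, and Mir381, with 3021 and 2656, was 1.42-fold higher there. Mir138-1, a further regulator of spine size, was 1.11-fold higher in replicate 2, but it shares 24 bases with Mir138-2.

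Less abundant members with a called difference of at least 1.5-fold were all higher in replicate 1. They were Mir183 (2.14-fold) and Mir211 (1.81-fold), which respond to light in the retina, Mir29b-1 (1.61-fold), Mir9-1 (1.69-fold) and Mir124a-3, with 10 and 3 counts. Mir29b-1, Mir9-1 and Mir124a-3 share 25 bases or more with another locus and are uncertain. The 6 tested members without a call were Mir181a-1, Mir181a-2, Mir9-3, Mir9-2, Mir219a-1 and Mir124a-1.

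In whole-tissue RNA, more cells of a type and more RNA per cell cannot be told apart. As background for the calls below, 34.2% of all tested genes were called toward replicate 1 and 24.5% toward replicate 2. Among genes with 1000 counts or more over both libraries, 47.2% were called toward replicate 1. A list of 17 neuron miRNA genes without the pair summed to 51360 CPM in replicate 1 and 44007 in replicate 2. Of its 16 tested members, 10 were called toward replicate 1 and 4 toward replicate 2, with a median log2 ratio of -0.34. Its members Mir124a-1 to Mir124a-3 had at most 19 counts in a library, and Mir124a-2 had 0 in replicate 1. They are also on the activity-regulated list, as are Mir128-1, Mir128-2, Mir138-1 and Mir138-2, so the lists are not independent. In CPM, Mir128-1 (9000 and 3687) and Mir487b (4881 and 1570) differed most toward replicate 1. Mir433, the most abundant neuron member, was higher in replicate 2 (12447 and 14390 CPM). Scaled to the neuron list instead, the log2 ratio was -0.71 for Mir132 and -0.28 for Mir212. The microglia and immune list, 7 genes led by Mir21a, summed to 6040 and 2938 CPM, and 1 of them, Mir146b, had 0 counts in replicate 2. Of the 6 tested members of this list, 4 were called toward replicate 1 and 1 toward replicate 2, with a median of -0.53. Mir21a by itself had 3357 and 899 CPM in replicates 1 and 2, the largest part of the difference in the sum. The member called toward replicate 2 was Mir142 (80.9 and 104 CPM), and Mir155 was not called. The endothelium list, nearly all Mir126a, summed to 7756 and 13122 CPM, with Mir126b at 0 in replicate 2. The astrocyte list of 10 genes summed to 36044 and 35756 CPM, mostly from Mir23b and Mir23a. Even so, 7 of its 10 members were called toward replicate 1, as Mir132 and Mir212 were, and 2 toward replicate 2. The list's median log2 ratio was -0.48. Besides Mir23b and Mir23a, which share 20 bases, the list held Mir27a, Mir27b, Mir24-1, Mir24-2, Mir143, Mir145a, Mir193a and Mir193b. Whether these genes are particular to astrocytes was not tested. The oligodendrocyte list of 3 genes summed to 7100 and 5341 CPM, with 2 called toward replicate 1 and a median of -0.20. The epithelium and choroid list of 7 genes summed to 927 and 865 CPM, of which Mir204 gave 475 and 667. Of these 7 genes, 5 were called toward replicate 1 and 1, Mir204, toward replicate 2. The median was -0.97, as for Mir132, but it is the value of Mir200a, with only 77 and 49 counts in replicates 1 and 2.

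The blood list of 4 genes summed to 89.7 CPM in replicate 1 and 890 CPM in replicate 2, nearly all from Mir451a in replicate 2. Mir451a and Mir144 were called toward replicate 2, and Mir486 and Mir3107 toward replicate 1. The embryonic stem list of 7 genes, whose counts were nearly all from the Mir302 cluster, had 1788 counts in replicate 1 and 1 in replicate 2. Mir290a and Mir295 had 0 counts in both libraries. Mir302a, Mir302c, Mir302d and Mir294 had 0 in replicate 2. The part of these differences in the higher Mir132 and Mir212 levels of replicate 1 was not tested.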

How the data were processed

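The authors deposited raw read counts per miRNA gene for each library, with 1 row per gene of GENCODE M21 on mm10, per the records accompanying the files. The counts were not normalized and the replicates were not pooled. Which aligner, counter and trimming were used is not stated in those records or the labels. The 4 rows that name no gene held 67.4% and 67.6% of the reads in replicates 1 and 2 and were left out. All 2202 gene IDs matched the annotation. The column of counts in the gene's own orientation was used, its orientation being read from the values. The tables held 12978140 and 15950006 reads.

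The members and lists were chosen with earlier results of these data known. Genes with 10 or more counts over both libraries were tested by a two-sided exact binomial test (scipy 1.17.1) against TMM-scaled library sizes (edgeR 4.0.16), adjusted by Benjamini-Hochberg with a threshold of 0.05. Ratios had 0.5 counts added. The method was tested on simulated data. These held counting error alone, without the further spread seen between the real libraries. Alternatives were DESeq2 1.42.0 size factors or total counts for scaling, the either-strand column, another pseudocount, other filters, other distances between pairs, edgeR's exact test at fixed BCVs and leaving out each library. Scaling to the neuron list was added after seeing the data. Folding used ViennaRNA 2.7.2. Genes named beside the pair were the 2 next above and below each in level, the 5 closest in ratio, the 3 closest neighbouring pairs on each side, and list members among the 5 most abundant or called with at least 1.5-fold. Mir134, Mir381 and Mir485, the next pairs by level gap, the members without a call and the marker genes were named after their values were seen. The promoter of the host transcript was not analysed here.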

Additional observations from a re-analysis of the deposited data

How the results depend on the processing

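Mir132 and Mir212 stayed higher in replicate 1, and the exact test still called both, with DESeq2 size factors, total counts, the either-strand column, a pseudocount of 0.1 and scaling to the neuron list. The log2 ratios ranged from -0.97 to -0.71 for Mir132 and from -0.54 to -0.28 for Mir212. edgeR's exact test at a fixed BCV of 0.4 left the log2 ratios at -0.97 and -0.54 and ended both calls (adjusted p = 1 for each). It called 7 genes in all, and a fixed BCV of 0.1 called 157, against 321 by the binomial test. With all reads of the table as the denominator, mean levels were 10036 CPM for Mir132 and 186 CPM for Mir212. Most reads were not assigned to a miRNA gene, and these include the reads mapping to several places. Leaving out 1 library gave 21189 to 40577 CPM for Mir132 and 474 to 673 CPM for Mir212. The called count of the activity-regulated list was 22 or 23 under other scalings and filters, and the share of neighbouring pairs closer together was 33.3% to 39.5%. No paired analysis was possible because the design holds 1 group. Depth does not limit Mir132; Mir212 rests on 2449 to 2845 counts.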
